A study of Mus musculus with 29 samples.

Results

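Hox genes encode homeodomain transcription factors that lie in 4 clusters in the mouse genome, Hoxa, Hoxb, Hoxc and Hoxd, and are numbered by paralogue group along each cluster. In the embryo, the order of the genes along a cluster follows the order of their expression along the body axis, with low paralogue numbers at the head end and high numbers at the tail end, and cells such as those of the neural crest, from which sympathetic neurons and the adrenal medulla arise, keep part of that pattern. In blood formation, several Hoxa and Hoxb genes are known for their expression in stem and progenitor cells.

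The genes described are 38 listed Hox cluster members, each read by the array probe sets that the platform annotation assigns to that symbol alone. By this rule 33 of the 38 members were measured, of 18193 genes in all, and where a gene had several probe sets, that of the highest mean signal was used. Hoxa6, Hoxc11 and Hoxc12 had no probe set under the rule, Hoxd4 was read only by probe sets shared with Hoxd3, and Hoxb8 only by a probe set shared with Hoxb7.

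The data came from 29 tissue samples from TH-MYCN mice of strain 129X1/SvJ, in which MYCN driven by the tyrosine hydroxylase promoter gives rise to neuroblastoma, a tumour of the sympathoadrenal lineage. They comprised 17 primary abdominal tumours deficient for caspase-8, 7 such tumours wild type for caspase-8, 3 whole bone marrow samples deficient for caspase-8 and 2 wild type marrow samples. By their genotype label all 4 groups carried the transgene, marrow included, and the labels say neither how caspase-8 was removed nor how old the animals were. No label states that the samples were separate animals, and p-values thus reflect sample-to-sample spread that may be technical in part. Values are log2 signals after RMA, which corrects the background, normalizes quantiles and summarizes the probes, and a difference of 1 is a doubling. RMA compresses low signals and no detection calls were used, so differences from a group at low signal are left on the log2 scale and no fold is drawn from them, and precision is limited by how few arrays there are, 5 of them for marrow.

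The arrays separated by tissue. Pearson correlations over all probe sets ran from 0.969 to 0.993 between tumours, from 0.964 to 0.99 between marrow samples, and from 0.806 to 0.865 between a tumour and a marrow sample. The mean of 10 sympathoadrenal markers was 8.96 to 9.99 in tumours and 4.25 to 4.51 in marrow, and that of 10 haematopoietic markers 3.88 to 4.89 in tumours and 9.72 to 10.02 in marrow. Ptprc, the pan-leukocyte gene, nevertheless reached 11.1 in the tumour where it was highest, against 11.2 to 12.1 in marrow. Casp8 itself was at 5.62 ± 0.44 (SD, n = 17) in deficient and 5.88 ± 0.57 (SD, n = 7) in wild type tumours, and at 9.14 ± 0.12 (SD, n = 3) in deficient and 9.46 ± 0.23 (SD, n = 2) in wild type marrow. Which part of Casp8 was deleted is not in the labels, so this probe set may lie outside it and does not check the genotype. In these bulk samples, fewer cells of a type and less RNA per cell cannot be told apart.

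RefSeq promoter windows of 300 bases, 250 before to 50 after an annotated start, were found for 22 of the 38 members. Those of Hoxd9, Hoxd8 and Hoxc4 and that of Hoxd3os1, a long noncoding RNA gene next to Hoxd8, are shown because the tumours differed clearly from marrow or from each other at these genes; Hoxc5 and Hoxc8, which differed from marrow by more than Hoxd9, are not shown. Capitals mark CG dinucleotides, the bases that DNA methylation can modify. The windows lie, in RefSeq GRCm38.p6, at chr2:74697513-74697812 on the plus strand for Hoxd9, chr2:74704365-74704664 on the plus strand for Hoxd8, chr2:74716081-74716380 on the minus strand for Hoxd3os1 and chr15:103034145-103034444 on the plus strand for Hoxc4.
Hoxd9: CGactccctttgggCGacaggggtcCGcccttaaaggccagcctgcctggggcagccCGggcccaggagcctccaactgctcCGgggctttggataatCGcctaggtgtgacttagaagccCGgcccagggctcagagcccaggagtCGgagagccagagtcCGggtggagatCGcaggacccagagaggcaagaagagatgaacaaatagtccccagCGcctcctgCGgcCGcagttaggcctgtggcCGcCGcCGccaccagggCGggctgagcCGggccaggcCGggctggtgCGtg
Hoxd8: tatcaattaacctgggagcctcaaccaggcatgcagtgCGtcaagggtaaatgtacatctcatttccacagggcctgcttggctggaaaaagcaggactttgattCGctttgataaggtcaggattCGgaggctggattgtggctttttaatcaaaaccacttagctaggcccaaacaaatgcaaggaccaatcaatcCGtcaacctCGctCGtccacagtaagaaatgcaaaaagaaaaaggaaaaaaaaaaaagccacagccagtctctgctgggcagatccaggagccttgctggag
Hoxd3os1: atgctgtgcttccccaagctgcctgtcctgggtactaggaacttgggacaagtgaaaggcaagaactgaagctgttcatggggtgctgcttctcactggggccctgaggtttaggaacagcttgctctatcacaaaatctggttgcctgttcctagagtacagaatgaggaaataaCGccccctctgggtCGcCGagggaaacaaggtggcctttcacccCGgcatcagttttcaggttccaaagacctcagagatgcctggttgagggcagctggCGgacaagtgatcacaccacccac
Hoxc4: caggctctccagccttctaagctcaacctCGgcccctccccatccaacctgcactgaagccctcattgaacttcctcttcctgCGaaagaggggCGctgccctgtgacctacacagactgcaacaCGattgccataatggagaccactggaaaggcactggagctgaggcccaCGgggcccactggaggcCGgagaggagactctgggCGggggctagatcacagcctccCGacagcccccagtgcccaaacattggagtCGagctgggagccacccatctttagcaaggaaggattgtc
The windows hold 20 CG dinucleotides at Hoxd9, 6 at Hoxd8, 5 at Hoxd3os1 and 9 at Hoxc4, against a median of 7 over 32851 windows. Both strands were searched for CACGTG, the E-box that MYC and MYCN bind, TGATNNAT, a joint HOX and PBX site, TGACAG, a MEIS site, and TATAAA, the TATA box. No match to any of these motifs occurred in the 4 windows shown, while 7.15% of all windows hold the E-box, 8.85% the HOX and PBX site, 19.18% the MEIS site and 13.62% the TATA box. Among the 22 members with a window, the E-box letters occurred in 5, namely Hoxd1, Hoxd4, Hoxd10, Hoxd11 and Hoxd13, the HOX and PBX site in 4, the MEIS site in 2 and the TATA box in 4. Some members, such as Hoxd11 and Hoxa10, had several windows and were counted once if any matched. The member counts are thus not comparable with the shares per window. A match or its absence describes these letters only.

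The question of which Hox genes tumours express relative to marrow was addressed by the mean of both tumour groups minus the mean of both marrow groups. The higher members were Hoxc and Hoxd genes: Hoxc4, Hoxc5, Hoxc6, Hoxc8, Hoxc9, Hoxd3, Hoxd8 and Hoxd9 were higher in tumours than in marrow, by up to 5.20 log2 units at Hoxc4. Another 12 members were lower in tumours, and only Hoxb4 among them by more than 1. In all, 20 of 33 members (60.6%) were called at an adjusted p of 0.05 in limma, against 76.4% of all genes. The 8 higher members, 24.2% of those measured, stand against 34.2% of all genes, and the 12 lower ones, 36.4%, against 42.2%, so in both directions the members' share lay below that of all genes. Among all genes 16.8% were higher by at least 1 and 12.6% lower by at least 1, and among the members 5 were higher and 1 lower by that much. The median difference was -0.129 over the members and -0.104 over all genes. Centring each array on its median moved the median of all genes to -0.394 and the members' calls to 6 higher and 25 lower. With that centring 15313 of 18193 genes were called in either direction, against 13899 without it.

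By cluster, the higher calls lay in Hoxc and Hoxd. Of 7 Hoxc genes measured, 5 rose and none fell, with a median difference of 0.82. Of 8 Hoxd genes, 3 rose and 4 fell. Of 9 Hoxa genes none rose and 2 fell, and of 9 Hoxb genes none rose and 6 fell. Among all genes 34.2% were higher and 42.2% lower, so these small counts only describe the clusters. Among the genes that fell, Hoxa13, Hoxb1, Hoxb9, Hoxb13 and all 4 Hoxd genes lost their calls with quantile normalization. Hoxc6 lost its call among those that rose. By paralogue group, all higher calls lay within groups 3 to 6, 8 and 9, and none of the 10 measured members of groups 10 to 13 rose. In group 8, known in mice for the thoracic and lumbar skeleton, both measured genes rose. In group 9 Hoxc9 and Hoxd9 rose, Hoxb9 fell by 0.35 and Hoxa9 was not called. The plot of differences by paralogue group shows the 4 clusters side by side.

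**Figure D1:**
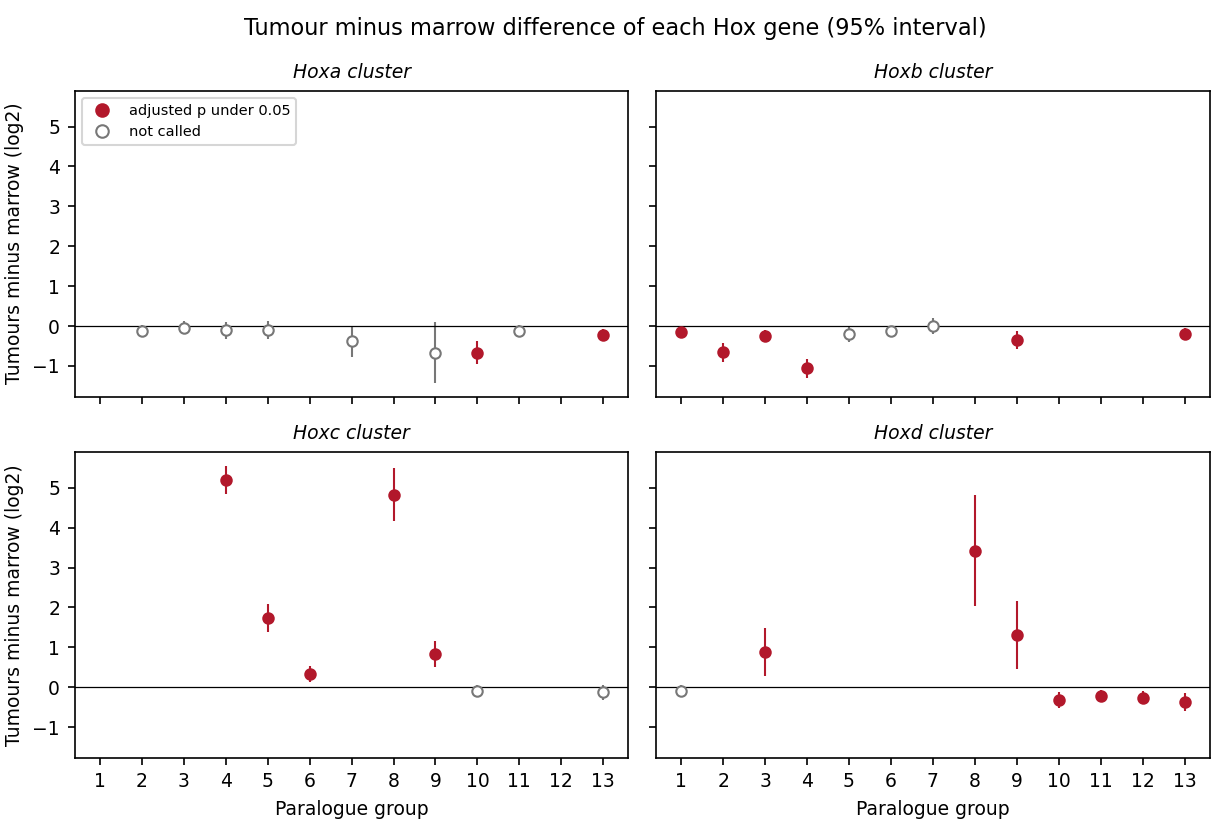
Difference in log2 signal, tumours minus marrow, of the 33 measured Hox genes (vertical axis) by paralogue group (horizontal axis), a panel for each cluster. Bars are 95% intervals from the limma fit, filled red points passed an adjusted p of 0.05 and open points did not; the largest differences, 5.20 and 4.83, are those of Hoxc4 and Hoxc8.

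Hoxc4 lies at the head end of the Hoxc cluster, and its loss in mice affects vertebrae and the oesophagus. Its signal in deficient tumours ran from 8.73 through a median of 9.48 to 9.94, in wild type tumours from 8.77 through 9.59 to 9.86, was 3.92, 4.72 and 4.18 in deficient marrow, and was 3.86 and 4.41 in wild type marrow. Every tumour was above every marrow sample, and the gap between the groups was wider than the whole spread among tumours. The difference was 5.20 (SE 0.17, limma adjusted p = 1.86e-21, n = 24 tumours and 5 marrow samples). Hoxc4 was the only measured member at 7 or above in every tumour, and it was under 5 in every marrow sample.

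Hoxc8, which patterns the thoracic skeleton and spinal motor neurons of the forelimb level in mice, ran from 6.12 through 7.93 to 8.80 in deficient tumours and from 6.38 through 7.39 to 8.44 in wild type tumours. It was 2.99, 2.87 and 2.62 in deficient marrow and 2.98 and 2.68 in wild type marrow. No tumour came near the marrow range. The difference was 4.83 (SE 0.32, limma adjusted p = 3.71e-14).

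Hoxc5, a neighbour of Hoxc4, ran from 4.55 through 5.26 to 5.64 in deficient tumours and from 4.53 through 5.33 to 5.64 in wild type tumours. It was 3.38, 3.70 and 3.25 in deficient marrow and 3.47 and 3.35 in wild type marrow, again below every tumour. The difference was 1.74 (SE 0.17, limma adjusted p = 1.54e-10). The other 2 probe sets of Hoxc5 differed by 0.02 and 0.06 and were not called, so the difference rests on 1 of 3 probe sets, and the mean of the 3 gave 0.61.

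Hoxc9, which in mice sets the identity of thoracic motor neurons, was higher in tumours by 0.82 (SE 0.16, limma adjusted p = 3.69e-05). Its tumours ran from 5.68 to 6.93 and its marrow samples from 5.24 to 5.82, so the groups overlapped. Hoxc6, a gene of the forelimb level, rose by 0.33 (SE 0.10, limma adjusted p = 0.00489), a call lost with quantile normalization (adjusted p = 0.0669) and with median centring (adjusted p = 0.722). The other 2 probe sets of Hoxc6, at 0.19 and 0.33, were not called. Hoxc10, a gene of the lumbar level, and Hoxc13, a gene of hair and nail formation, were under 5 in every sample and were not called. Each measured gene from Hoxc4 to Hoxc9 was thus called higher, but in Hoxc5 and Hoxc6 only 1 of 3 probe sets was called by itself. The mean of the 3 was called in both, at 0.61 for Hoxc5 and 0.29 (limma adjusted p = 0.0219) for Hoxc6.

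In 3 members, Hoxc4, Hoxc5 and Hoxc8, every tumour lay above every marrow sample, a pattern that 20.9% of all genes showed. In 2 members, Hoxb2 and Hoxb4, every tumour lay below every marrow sample, against 16.9% of all genes. Fibroblast and mesenchymal markers, of which 7 of 10 rose, had a mean of 6.77 to 9.23 in tumours and 5.44 to 6.30 in marrow, and their part in the Hoxc and Hoxd differences was not tested. Deficient tumour 17, which had the lowest fibroblast mean, had Hoxc4 at 8.88 and Hoxc8 at 7.55. Wild type tumour 1, which had the highest, had them at 9.04 and 6.91. Deficient tumour 16, which had the next highest fibroblast mean, 9.17, had them at 9.40 and 8.17. Deficient tumour 17 and wild type tumour 1 were among the 5 lowest in Hoxc4, and deficient tumour 16 was not.

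**Figure D2:**
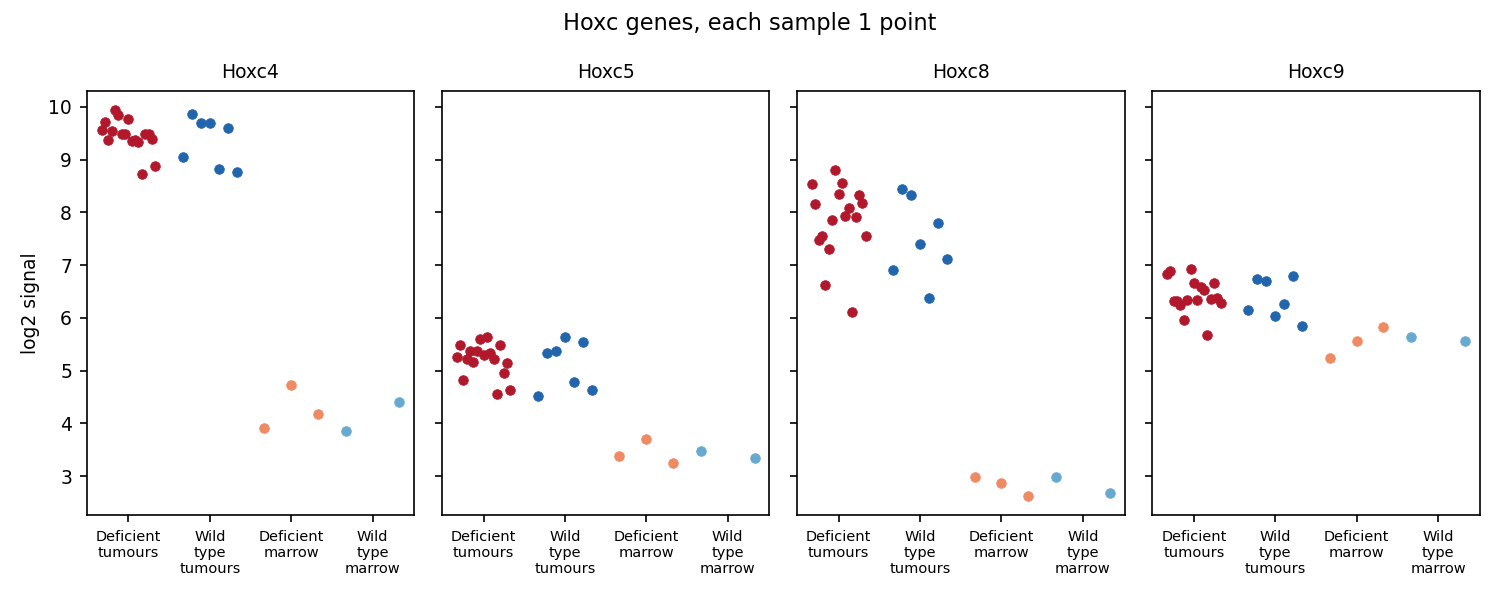
Log2 signal (vertical axis) of Hoxc4, Hoxc5, Hoxc8 and Hoxc9, each point 1 sample, in deficient tumours, wild type tumours, deficient marrow and wild type marrow. All 24 tumours sit above the 5 marrow samples in the first 3 genes, and the tissues overlap in Hoxc9.

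The spread of the Hoxc genes among tumours ran together to a degree. The 5 lowest tumours in Hoxc4 were deficient tumours 13 and 17 and wild type tumours 1, 5 and 7, at 8.73, 8.88, 9.04, 8.83 and 8.77. The same 5 were lowest in Hoxc5, 4 of them were among the 5 lowest in Hoxc8 and 3 in Hoxc9, and none was among the 5 lowest in Hoxc6 or Hoxd8. Of 18193 genes, 4 (0.022%) had these same 5 lowest tumours, among them Hoxc4, by which they were picked, and Hoxc5. The others were Epb41l1 and Prkce, chosen for mention after their values were seen. Marker means differed among these 5 tumours: the fibroblast mean ran from 6.77 to 9.23 and the skeletal muscle mean from 3.79 to 7.30, against 7.39 to 9.17 and 3.75 to 9.59 in the other 19.

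The Hoxd cluster showed another pattern. Hoxd8, a gene of the middle of the cluster expressed along the trunk of the embryo, ran from 4.15 through 8.001 to 8.89 in deficient tumours and from 4.94 through 8.65 to 8.94 in wild type tumours. It was 5.04, 4.44 and 4.04 in deficient marrow and 4.03 and 4.48 in wild type marrow. Most tumours were far above marrow. Deficient tumour 9 and wild type tumour 6, at 4.15 and 4.94, were within its range, so the tissues overlapped. Deficient tumours 1, 3 and 5, at 5.11 to 5.29, were just above it. The difference was 3.42 (SE 0.68, limma adjusted p = 4.66e-05), and the other Hoxd8 probe set gave 1.62 (SE 0.64, limma adjusted p = 0.0266 over 45037 probe sets).

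Hoxd9, known in mice for lumbar vertebrae and the forelimb, ran from 4.97 through 6.43 to 8.07 in deficient tumours and from 5.25 through 7.26 to 7.65 in wild type tumours. It was 5.41, 5.15 and 5.14 in deficient marrow and 5.38 and 5.28 in wild type marrow. The lowest tumours lay within or below the marrow range. The difference was 1.30 (SE 0.42, limma adjusted p = 0.00633).

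Hoxd3, which in mice forms the first neck vertebrae, was higher in tumours by 0.88 (SE 0.30, limma adjusted p = 0.00869), with tumours from 3.98 to 6.24 and marrow from 4.17 to 4.43. The call was lost when each array was centred on its median (adjusted p = 0.0665). The probe sets shared by Hoxd4 and Hoxd3 differed by 1.13 (limma adjusted p = 0.000898) and 0.34 (limma adjusted p = 0.0825), and which of the 2 genes they read cannot be told apart. Hoxd1, a gene of pain-sensing neurons, was not called and was under 5 in every sample. Hoxd10, Hoxd11, Hoxd12 and Hoxd13, genes of the limbs and the tail end of the body, were under 5 in every sample too and are among the lower members.

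The low values of Hoxd8 belonged to 5 tumours. Deficient tumours 1, 3, 5 and 9 had Hoxd8 at 5.26, 5.11, 5.29 and 4.15, and wild type tumour 6 had it at 4.94. The other 19 tumours ran from 7.51 to 8.94, so that no tumour lay between 5.29 and 7.51. The same 5 tumours were the lowest in the other Hoxd8 probe set, at 3.80 to 4.70 against 7.04 to 8.24 in the other 19. Marrow ran from 4.23 to 6.09 on that probe set, so how the 5 stood to marrow depended on the probe set. They were also the lowest in Hoxd9, at 4.97 to 5.30 against 5.47 to 8.07. Wild type tumour 7 was the next in Hoxd9, at 5.47, but had Hoxd8 at 8.14. The 5 tumours came from both genotypes, 4 of 17 deficient and 1 of 7 wild type.

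Hoxd3os1, a long noncoding RNA gene that follows Hoxd8 and overlaps the start of Hoxd3 in the RefSeq gene order, and Gm38462, another noncoding gene whose annotated span contains Hoxd8, showed the same division. Both were chosen after their values were seen, and where spans overlap only the annotation assigns a probe set to a gene. Hoxd3os1 was at 4.57, 3.81, 5.01 and 3.46 in deficient tumours 1, 3, 5 and 9 and at 4.01 in wild type tumour 6, against 6.86 to 8.51 in the other 19. Gm38462 was at 2.56 to 3.06 in the 5 tumours and 3.76 to 5.12 in the other 19, with marrow at 3.46 to 3.82. The other probe set of Hoxd3os1 ran from 2.68 to 3.32 over all tumours and showed no such division. Of 18193 genes, only Hoxd8, Hoxd9, Hoxd3os1 and Gm38462 (0.022%) had these same 5 lowest tumours, all 4 adjacent in the Hoxd cluster. The 5 were picked by Hoxd8, so its place in this count was given. No gene had the 5 as its highest.

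Toward Hoxd3 the division was less complete. In Hoxd3, 4 of the 5 tumours were among the 5 lowest, at 3.98 to 4.38, while deficient tumour 5 was at 5.30, within the 4.38 to 6.24 of the other 19. In a probe set shared by Hoxd4 and Hoxd3, deficient tumour 5 was at 4.17 and the other 4 at 3.08 to 3.57, against 3.75 to 5.65 in the other 19. The other shared probe set divided the tumours less, with deficient tumours 1 and 5 at 5.83 and 5.99, within the 5.77 to 6.71 of the other 19, and the remaining 3 at 5.48 to 5.70. Hoxd1 and Hoxd10 to Hoxd13 were low in all tumours and could not show it. The genes that flank the cluster, Evx2 and Lnpk on one side and Mtx2 on the other, had overlapping values, with Mtx2 at 9.27 to 9.59 in the 5 tumours and 9.40 to 9.94 in the other 19.

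The Hoxc genes did not follow this division: Hoxc4 was at 9.38 to 9.94 in the 5 tumours and 8.73 to 9.86 in the other 19, and Hoxc8 at 6.62 to 8.53 and 6.12 to 8.80. Marker means of the 5 tumours overlapped those of the other 19 as well. The sympathoadrenal mean was 9.44 to 9.99 against 8.96 to 9.89, the fibroblast mean 7.45 to 8.45 against 6.77 to 9.23, the endothelial mean 5.16 to 6.45 against 4.81 to 6.43, and the haematopoietic mean 3.88 to 4.29 against 3.89 to 4.89. The plot of Hoxd values by sample marks the 5 tumours with symbols of their own.

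**Figure D3:**
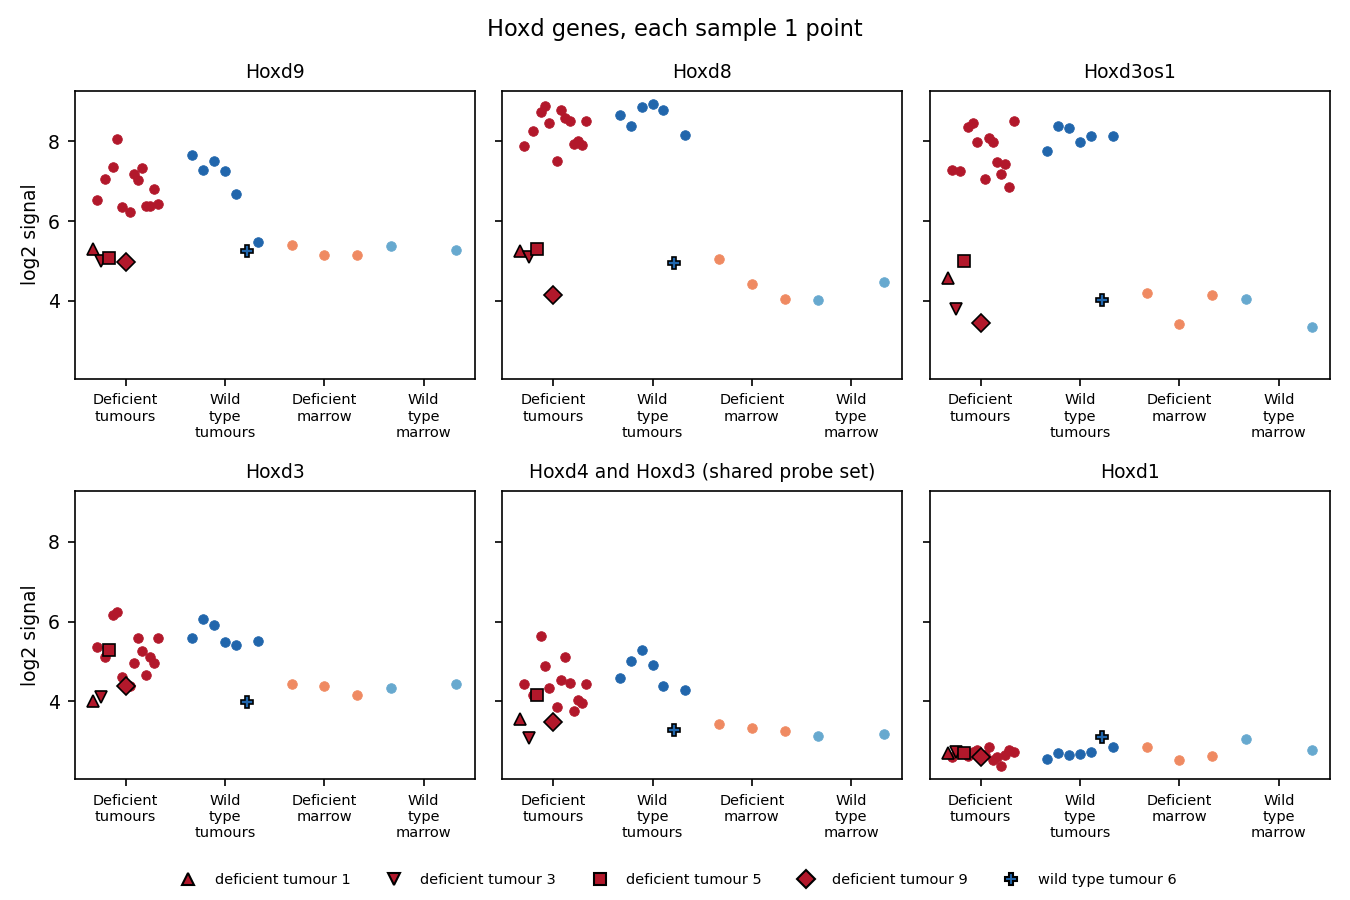
Log2 signal (vertical axis) of Hoxd9, Hoxd8, Hoxd3os1, Hoxd3, a probe set shared by Hoxd4 and Hoxd3, and Hoxd1, each point 1 sample in the 4 groups. Outlined symbols mark deficient tumours 1, 3, 5 and 9 and wild type tumour 6, which are the lowest tumours in the upper 3 panels. In the panels of Hoxd3 and the shared probe set, deficient tumour 5 lies among the other tumours. In Hoxd1 all tumours are low and the outlined ones are not the lowest.

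Among the lower members, Hoxb4, which in mice promotes the expansion of blood stem cells, differed most. It ran from 3.55 through 4.18 to 4.46 in deficient tumours and from 3.99 through 4.31 to 4.50 in wild type tumours, was 5.20, 5.20 and 5.34 in deficient marrow, and was 5.39 and 5.00 in wild type marrow. Every tumour lay below every marrow sample. The difference was -1.05 (SE 0.12, limma adjusted p = 2.50e-09), and its other probe set gave -0.64 (SE 0.11). Of 6 measured markers of blood stem and progenitor cells 3 rose and 2 fell, and their mean was 7.40 to 8.48 in tumours and 6.48 to 6.79 in marrow; their part in the Hoxb4 difference was not tested.

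Hoxb2, which patterns the hindbrain and facial nerve, fell by 0.66 (SE 0.11, limma adjusted p = 5.85e-06), with tumours at 4.22 to 5.03 and marrow at 5.04 to 5.67. Hoxa10, a gene of the uterus and of myeloid progenitors, fell by 0.66 (SE 0.14, limma adjusted p = 7.74e-05), but its other probe set differed by 0.10 and was not called. The remaining 9 lower members, Hoxa13, Hoxb1, Hoxb3, Hoxb9, Hoxb13, Hoxd10, Hoxd11, Hoxd12 and Hoxd13, fell by 0.16 to 0.37. All of these but Hoxb3 were under 5 in every sample, and Hoxb3 reached 5.26 in marrow only. With quantile normalization 4 of the 12 lower members, Hoxa10, Hoxb2, Hoxb3 and Hoxb4, were still called lower and 8 were not, while Hoxa5, Hoxa7 and Hoxa9 were called lower in addition. Without wild type marrow 1, 7 of the 12 were still called, the calls of Hoxb1, Hoxb9, Hoxb13, Hoxd12 and Hoxd13 were lost, and Hoxb5 was called in addition.

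Of the 13 members not called, Hoxb7, Hoxa3 and Hoxa5 had the smallest differences relative to their errors, at -0.0013, -0.037 and -0.096. In the level classes used here, 21 members were under 5 in every tumour, 1 was at 7 or above in every tumour and 11 were mixed. In marrow 23 members were under 5 in every sample and 10 were mixed. Levels of different probe sets are not comparable, so these classes describe each gene by itself.

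Hoxa9, which with its partner Meis1 maintains myeloid progenitors and drives leukaemia in mice, was not called on its main probe set (-0.67, SE 0.37, limma adjusted p = 0.102). Its tumours ran from 4.92 through 5.32 to 8.95 in deficient and from 5.08 through 5.33 to 5.41 in wild type tumours, and it was 6.25, 5.68 and 5.57 in deficient marrow and 6.33 and 6.27 in wild type marrow. The values above 6 in tumours were those of deficient tumour 5, at 8.95, and deficient tumour 17, at 6.51. Without deficient tumour 5 the difference was -0.77 (limma adjusted p = 4.54e-05), and Hoxa9 was called lower. With deficient tumour 5 kept, it was also called lower with the mean of its probe sets (-1.51, adjusted p = 0.0133), quantile normalization (-0.94, adjusted p = 0.0265) and median centring (-0.95, adjusted p = 0.0187), and among samples with title numbers of 100 and over (-0.72, adjusted p = 0.00158).

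The other Hoxa9 probe set separated the samples more widely. It was at 10.5 in deficient tumour 5 and 8.84 in deficient tumour 17, at 3.11 to 4.95 in the other 22 tumours, and at 6.41 to 6.78 in marrow. Its difference was -2.36 (SE 0.74, limma adjusted p = 0.00569 over 45037 probe sets). Marrow thus lay between those 2 tumours and all others.

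Hoxa7, the neighbour of Hoxa9 and a gene of the thoracic level, was highest in deficient tumour 17, at 6.87, against 4.64 to 5.39 in the other tumours and 5.14 to 5.77 in marrow; in deficient tumour 5 it was at 5.06. Its difference of -0.38 was not called (limma adjusted p = 0.0716), and without deficient tumour 17 it was -0.43 (limma adjusted p = 0.000326). With all samples it was called lower with quantile normalization (-0.58, adjusted p = 0.00867) and with median centring (-0.67, adjusted p = 0.00293). The haematopoietic mean was 3.88 in deficient tumour 5, the lowest of all tumours, and 4.57 in deficient tumour 17, against 3.89 to 4.89 in the other 22. The same 2 tumours were the highest in 78 genes (0.429%), among them Hoxa9, by which they were picked.

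**Figure D4:**
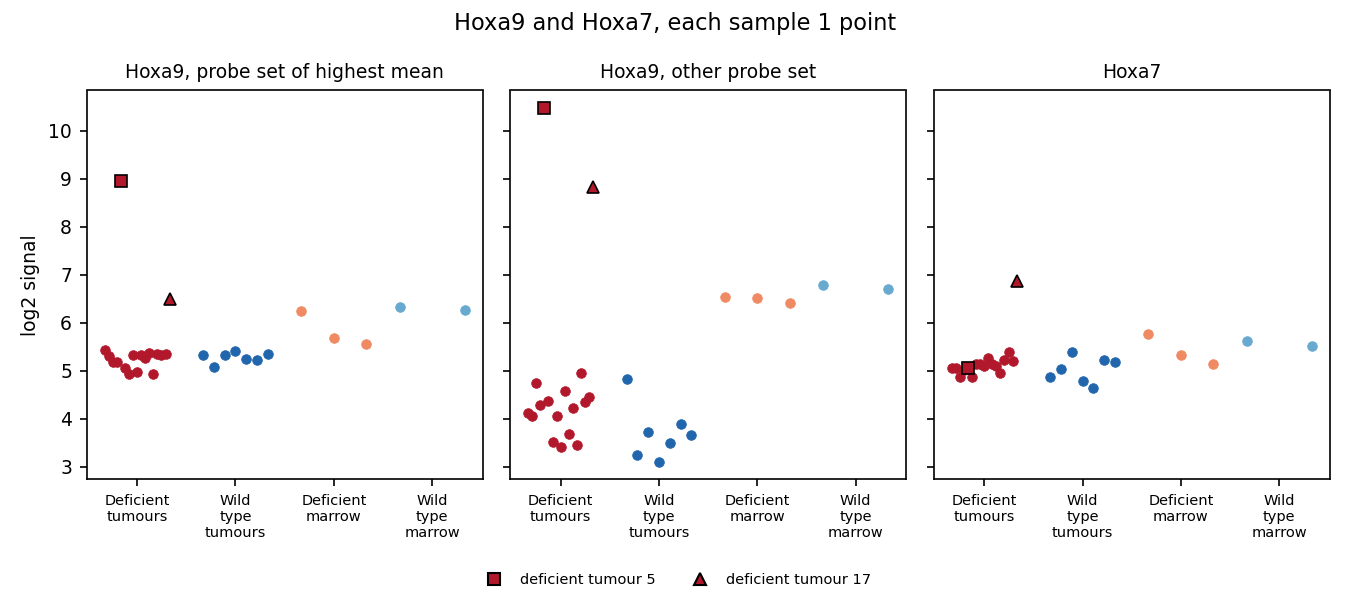
Log2 signal (vertical axis) of the main Hoxa9 probe set, the other Hoxa9 probe set and Hoxa7, each point 1 sample in the 4 groups. The square is deficient tumour 5 and the triangle deficient tumour 17; on the other Hoxa9 probe set they sit at 10.5 and 8.84, above marrow, and all other tumours sit below marrow.

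Deficient tumour 17 was also the highest tumour on both probe sets of Hoxa4 and of Hoxa5. On those used here it was at 3.48 in Hoxa4, against at most 2.845 in the other tumours. In Hoxa5 it was at 6.24, against at most 6.03. Over the members as a whole, the tumours were more like each other than like marrow. Across the 33 members, the rank correlation of a tumour with the median of the other tumours ran from 0.931 to 0.986, with a median of 0.973, and that of a marrow sample with the tumour median from 0.667 to 0.791. Pearson correlations were 0.872 to 0.996 for tumours, lowest in deficient tumour 5, and 0.484 to 0.574 for marrow. These values describe profiles that share the same probe sets and thus the same probe effects, and over all genes the tumours' rank correlations were 0.984 to 0.996. The heat map by sample shows the bands of Hoxc4, Hoxc8 and Hoxd8 across the tumours, with gaps in Hoxd8 where the 5 low tumours stand.

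**Figure D5:**
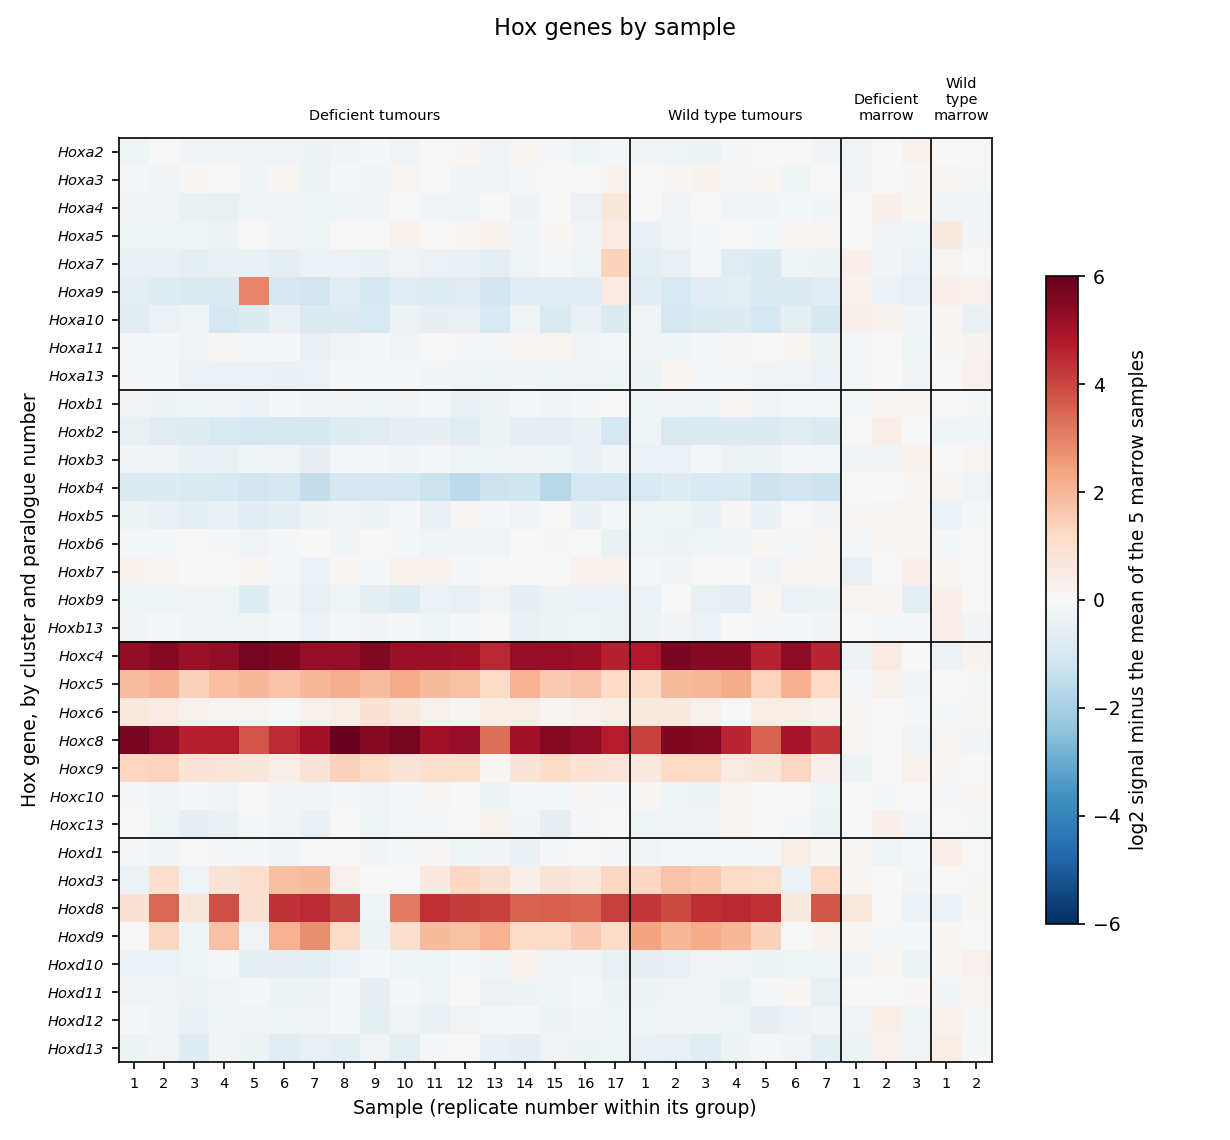
Log2 signal of each of the 33 measured Hox genes (rows, by cluster and paralogue number) in each of the 29 samples (columns, by group), minus that gene's mean over the 5 marrow samples. Red is above and blue below the marrow mean; Hoxc4 and Hoxc8 are red in all 24 tumours and Hoxd8 is strongly red in all but the 5 low tumours.

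The spread over tumours was concentrated in few members. The median SD over the 24 tumours was 0.199 for members and 0.194 for all genes. An SD of at least 0.5 was found in 5 members (15.2%), Hoxa9 at 0.80, Hoxc8 at 0.72, Hoxd3 at 0.66, Hoxd8 at 1.49 and Hoxd9 at 0.92, against 6.91% of all genes. The SD of Hoxd8 exceeded that of 99.8% of all genes.

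Between deficient and wild type tumours, no member was called at an adjusted p of 0.05 in limma, and none had an unadjusted p under 0.05, against 0% and 3.2% of all genes. The differences of the members ran from -0.58 to 0.36. Hoxd3 averaged 5.05 ± 0.64 in deficient and 5.43 ± 0.68 in wild type tumours (SD, n = 17 and 7), a difference of -0.38 (SE 0.28, 95% interval -0.95 to 0.19, limma adjusted p = 0.9997). Hoxc8 averaged 7.84 ± 0.70 in deficient and 7.48 ± 0.76 in wild type tumours, a difference of 0.36 (SE 0.30, 95% interval -0.26 to 0.98, limma adjusted p = 0.9997), and turned to -0.25 among the 10 tumours with title numbers under 100. Hoxa10 differed by 0.16 and Hoxd1 by -0.084, and among those 10 tumours Hoxd1 stood at 0.053. These are the 4 members of smallest p and differ within the spread between samples.

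In marrow no member passed either threshold between deficient and wild type, against 0.022% of all genes at the adjusted threshold and 4.05% at an unadjusted p under 0.05. With 3 against 2 samples, Hoxa9 was at 5.83 ± 0.36 in deficient and 6.30 ± 0.04 in wild type marrow, a difference of -0.47 (SE 0.24, limma adjusted p = 0.9996). Hoxb2 and Hoxb5 differed by 0.35 each and Hoxa11 by -0.29. In the interaction of tissue and genotype no member was called either, against 0.319% of all genes, and 1 had an unadjusted p under 0.05, against 7.83%. That member was Hoxb5, a gene of neural crest and enteric neurons, at -0.44 (SE 0.20, limma adjusted p = 0.587), and Hoxa11, Hoxd10 and Hoxa5 were at 0.28, 0.32 and 0.36.

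The sample titles carry numbers in a lower and a higher series, which no label calls a batch. Between the 14 tumours with numbers of 100 and over and the 10 under 100, with genotype in the fit, 2 members were called, both higher, against 7.9% of all genes, 4.39% higher and 3.52% lower. Hoxa5, a gene of the lung and the neck to thorax transition, averaged 5.86 in the higher and 5.57 in the lower series, a difference of 0.28 (SE 0.063, limma adjusted p = 0.00614), but its other probe set went the other way, at -0.12. Hoxb5 averaged 2.96 in the higher and 2.70 in the lower series, a difference of 0.26 (SE 0.065, limma adjusted p = 0.0157). The 5 tumours low in Hoxd8 came from both series, and marrow lay in the higher series only; within it Hoxd8 was higher in tumours by 3.39 and Hoxc5 by 1.74.

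HOX proteins bind DNA together with TALE homeodomain proteins of the MEIS, PBX and PKNOX families. Of 9 such genes 8 were measured, and 6 rose in tumours relative to marrow and none fell, where 34.2% of all genes were higher and 42.2% lower, with a median difference of 0.49 over the list and -0.104 over all genes. Meis1 had 8.62 to 9.32 in tumours and 5.08 to 5.83 in marrow, a difference of 3.60 (SE 0.10, limma adjusted p = 7.01e-24). Pbx3 rose by 1.92 (SE 0.21, limma adjusted p = 3.56e-09). Meis2 rose by 3.85 (SE 0.73, limma adjusted p = 2.52e-05), with tumours from 4.71 to 10.2 and marrow from 3.63 to 4.77. Its lowest tumours were deficient tumour 12, wild type tumour 6 and deficient tumour 11, at 4.71, 4.86 and 5.20, so that of the 5 tumours low in Hoxd8 only wild type tumour 6 was among them. Meis3 and Pbx2 differed by 0.21 and -0.20 and were not called.

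Of 22 genes that regulate Hox clusters, 7 rose in tumours, 10 fell and 5 were not called, with a median difference of -0.123. These counts are near what the shares of all genes, 34.2% higher and 42.2% lower, would give for a list of this length. Bmi1, a Polycomb repressor, rose by 2.26 (SE 0.076, limma adjusted p = 2.14e-21), and Psip1, which tethers the MLL and menin complex to chromatin, by 2.20 (SE 0.089, limma adjusted p = 1.97e-19). Aldh1a2, which makes retinoic acid, a signal that activates Hox genes in the embryo, fell by 1.84 (SE 0.13, limma adjusted p = 6.98e-14), and Rarg, a retinoic acid receptor, fell by 1.37 (SE 0.076, limma adjusted p = 4.27e-16). Of the other retinoic acid receptors on the list, Rarb rose by 1.06 (SE 0.26, limma adjusted p = 0.000475) and Rara fell by 0.37 (limma adjusted p = 0.00276). Cyp26b1, Dot1l, Gdf11 and Ezh2, at 0.28, 0.20, -0.15 and -0.093, were not called. Of 9 transcripts listed as inside or next to the clusters 5 were measured, none rose and 4 fell, with a median difference of -0.297. The shares of all genes were the same 34.2% and 42.2%. Those that fell were Hoxa11os, Evx1, Evx2 and Mnx1, of which Mnx1 lies outside the clusters. Hoxd3os1, which lies inside the Hoxd cluster, was not on this list. Its main probe set was at 6.86 to 8.51 in 19 tumours, 3.46 to 5.01 in the 5 low in Hoxd8 and 3.34 to 4.21 in marrow. No gene of these 3 lists was called between deficient and wild type tumours.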

How the data were processed

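Expression was measured on 29 Affymetrix mouse arrays, 1 per sample. Deposited signals are log2 values that the authors made with RMA; the submitters' processing notes name Partek 6.6. It is not stated whether RMA was run on all arrays at once. The table held 45101 probe sets, 64 of them controls. The platform annotation gave 34945 of them 1 gene symbol, 932 several and 9160, controls aside, none. Symbols were updated through the gene ID for 34741 with a RefSeq table of GRCm38.p6, which served otherwise only for gene order.

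The probe set of highest mean stood for each of 18193 genes, with no filter. Samples were grouped by labelled tissue and genotype. Differences were tested two-sided by lmFit and eBayes of limma 3.58.1 (R 4.3.3), with Benjamini-Hochberg adjustment over all genes and a threshold of 0.05, using 4 groups for tissue and the interaction and each tissue alone for genotype. The fits were tested on simulated data. Members, lists and tests were chosen with earlier results of these data known. Members called between tissues with a difference of at least 1 are given in full. In other comparisons the called members or the 4 of smallest p are given. Of partner lists, up to 4 called by at least 1 and up to 4 not called are given, with Rarb and Rara in addition. Alternatives varied the choice of probe set, the normalization, the variance model, array weights and the samples, and a filter required a mean log2 of 5. Figures were drawn with matplotlib 3.10.9.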

Additional observations from a re-analysis of the deposited data

Results flagged for a closer look

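Among 66 sets of samples of 1 kind and 1 gene that were examined for a value far from the rest, 4 held such a value, and chance gives about 1 in 20. Wild type tumour 6 stood apart from the other wild type tumours in Hoxd8, at 4.939 against 8.143 to 8.941, and in Hoxd3, at 3.975 against 5.413 to 6.074. It is 1 of the 5 tumours with low Hoxd8, Hoxd9 and Hoxd3os1. Wild type tumour 1 had Hoxb2 at 5.033, against 4.424 to 4.623 in the other wild type tumours. Wild type marrow 1 had Hoxb13 at 3.644, against 3.178 to 3.29 in the other 4 marrow samples. The 17 deficient tumours were too many for this rule, so the Hoxa9 values of deficient tumours 5 and 17 were not examined by it.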

How the results depend on the processing

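No paired analysis was possible because the labels give no replicate numbers shared between the groups. The directions of Hoxc4, Hoxc8, Hoxd8, Hoxc5, Hoxd9 and Hoxb4 between tumours and marrow and their calls held under every alternative tried that tested them. The size of Hoxc5 did not, at 0.61 with the mean of its probe sets. The count of members lower in tumours was 0 with a mean log2 of at least 5, which left 10 members, 7 with quantile normalization, of which 4 are among the 12, 25 with median centring, and 8 to 14 leaving out 1 sample at a time; the count of higher members was 8 throughout the last. In either direction, 9170 of 11049 genes were called with the mean filter, 12492 of 18193 with quantile normalization and 15313 of 18193 with median centring. Hoxb13 turned to 0.013 with quantile normalization. Hoxa13 and Hoxd11 were not called without wild type marrow 2, nor Hoxb1 without deficient marrow 2 or 3. Without probe sets whose names end in x_at or s_at, Hoxa5 turned to -0.12 between title series and -0.18 in the interaction, which ran from -0.0046 without wild type marrow 1 to 0.72 without wild type marrow 2. Between title series the count of higher members was 1 without those probe sets, 1 with the mean filter, 1 with quantile normalization and 4 with median centring, and that of lower members was 1 with quantile normalization, 1 with array weights and 0 to 1 leaving out 1 sample at a time, the 1 without deficient tumour 7. Between genotypes, in tumours with title numbers under 100, Hoxd1 turned to 0.053 and Hoxc8 to -0.25. Apart from the counts under the mean filter, which tested fewer genes, the cause was not tested. Leaving out each tumour, and each deficient tumour in the genotype comparison, was chosen after seeing the data.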
